A study of Mus musculus with 38 samples.

Results

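The tumour necrosis factor (TNF) superfamily was followed in small lung vessels of C57BL/6J mice during chronic hypoxia and the return to normal oxygen. Its members here are the 32 genes whose symbol in the platform annotation is Tnf or begins with Tnfsf or Tnfrsf, out of 19087 named genes measured. They comprise 12 ligands and 20 receptors, read by 74 features of a 2-colour Agilent array. Intrapulmonary vessels of 50 to 100 µm outer diameter had been cut from 10 µm lung sections by laser microdissection, from animals aged 12 to 18 weeks. After hypoxia at an inspired oxygen fraction of 0.10 for 21 days, animals were returned to normoxia for 1 day (11 animals), 3 days (12), 7 days (12) or 14 days (10). A further 23 animals were taken at the end of hypoxia, and 8 animals had spent 21 days in normoxia at 0.21.

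Each of the 38 arrays compared 2 animals, 1 per dye. Hypoxia and normoxia met on 8 arrays, days 1, 3 and 7 met hypoxia on 4 arrays each, day 14 met hypoxia on 3 arrays, and no array joined a day of return to normoxia. Array names give the Cy3 animal's condition, then that of the Cy5 animal, then a number, where H stands for hypoxia, N alone for normoxia and N with a number for that day of return. The values are log ratios of unstated base, so folds are given for base 10 and base 2, and the sign follows the usual order of Cy5 over Cy3, which makes every direction below likely and not settled. A ratio holds no level, so neither the vessel markers nor the levels of 2 genes could be compared in absolute terms. In such tissue, fewer cells of a type and less RNA per cell cannot be told apart. Arrays N3_N1 1 and N3_N1 2 resembled each other over all features (r = 0.546), as did H_N 2 and N_H 4 once turned the same way (r = 0.430), whereas the median r between arrays of hypoxia and normoxia was 0.110. Calls of members that change without these pairs are given both ways, as are the values of Tnf and its receptors. Calls of named genes outside the family are given from the fit over all 38 arrays alone.

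TNF family ligands are trimeric proteins on the surface of immune and stromal cells, many of them shed, and their receptors pass the signal to TRAF adaptors or to death domain proteins. Several receptors activate NF-κB, and in vessels TNF itself is known for inducing adhesion molecules such as E-selectin and VCAM-1 on endothelium. Other members act as costimulators of T cells, as survival factors of B cells, as regulators of osteoclasts, or as inducers of cell death.

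The first comparison was between hypoxic and normoxic vessels. Both members that changed were receptors: Tnfrsf12a fell and Tnfrsf18 rose, and none of the 12 ligands passed the test. These 2 of 32 members (1 higher, 1 lower) stand against 3.6% of all 30653 entries called in this comparison by limma at an adjusted p of 0.05, 1.35% higher and 2.25% lower. An entry is a named gene or a feature without a single gene name. With 2 calls the family's share lies close to that background, and the result concerns these genes, not the family. Without array N_H 1 the count was 4, with Tnfrsf11a and Tnfsf11 added. By an unadjusted p under 0.05, 8 members differed, 2 higher and 6 lower, where 16.8% of all entries did so. Across the family 13 members lay above 0 and 19 below, where 45.2% of all entries lay above 0, and the median log ratio was -0.00781, against -0.00397 for all entries.

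**Figure D1:**
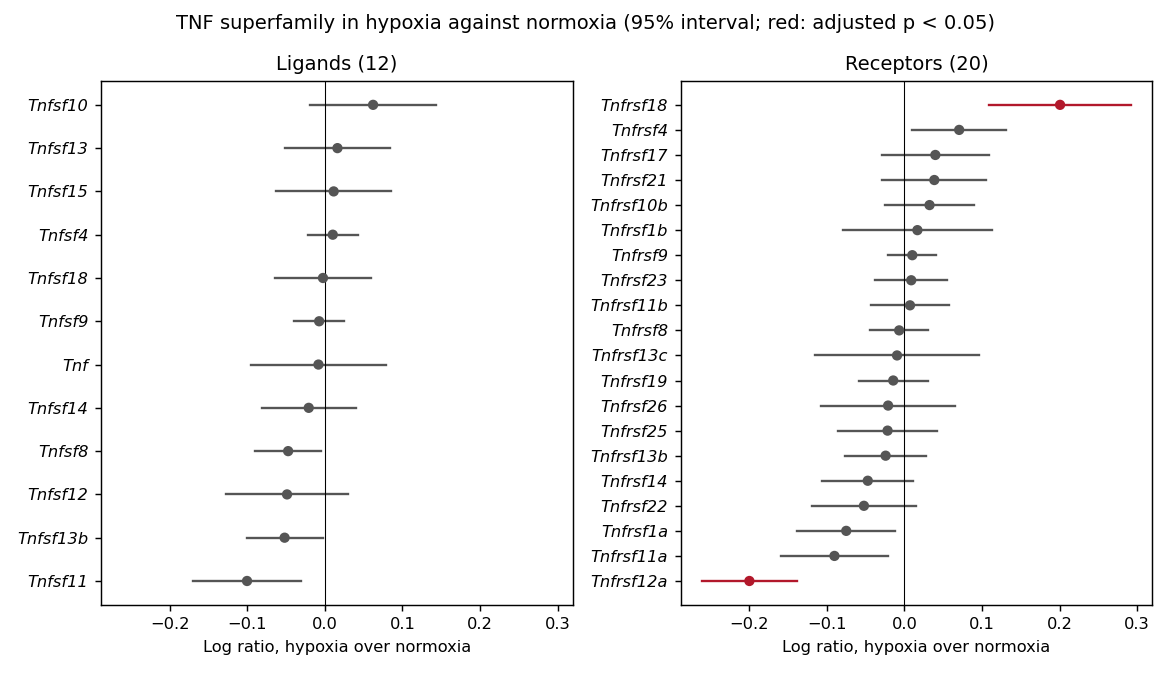
Log ratio of hypoxia over normoxia for the 12 ligands (left) and the 20 receptors (right), with the fitted value as a point and its 95% interval as a bar. Tnfrsf18 at 0.201 and Tnfrsf12a at -0.200, in red, are the 2 members past an adjusted p of 0.05, and the other intervals lie closer to 0 or include it.

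Tnfrsf12a encodes Fn14, the receptor of TWEAK, which is inducible in endothelial cells, smooth muscle cells and fibroblasts. On the 8 arrays of hypoxia over normoxia its log ratio was -0.304 at the lowest, -0.192 at the median and -0.119 at the highest. It was lower in hypoxia on every one of these arrays, in both dye orientations, and 4.02% of all entries had 1 sign on all 8. The fit over 38 arrays gave -0.200 ± 0.030 (SE, 8 direct arrays; 95% interval -0.261 to -0.139), an adjusted p of 0.000258 and the rank of 12 by p among 30653 entries. This is 1.58-fold lower in hypoxia in base 10, or 1.15-fold in base 2. Tnfrsf12a was also the only member past the test for any difference among the 6 conditions (F = 10.0, limma adjusted p = 0.0103), which 0.571% of all entries passed. Without arrays H_N 2 and N_H 4 it missed that threshold (adjusted p = 0.0560), and without H_N14 3 Tnfrsf18 passed it too.

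Tnfrsf18 encodes GITR, a costimulatory receptor known from regulatory and activated T cells. Its log ratios of hypoxia over normoxia were 0.0555 at the lowest, 0.168 at the median and 0.370 at the highest. All 8 arrays were above 0, with a wider spread than for Tnfrsf12a. The fitted value was 0.201 ± 0.045 (SE; 95% interval 0.109 to 0.292, adjusted p = 0.00891), which is 1.59-fold higher in hypoxia in base 10 or 1.15-fold in base 2. Each of these receptors rests on 1 feature, so no other probe bears on either value.

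**Figure D2:**
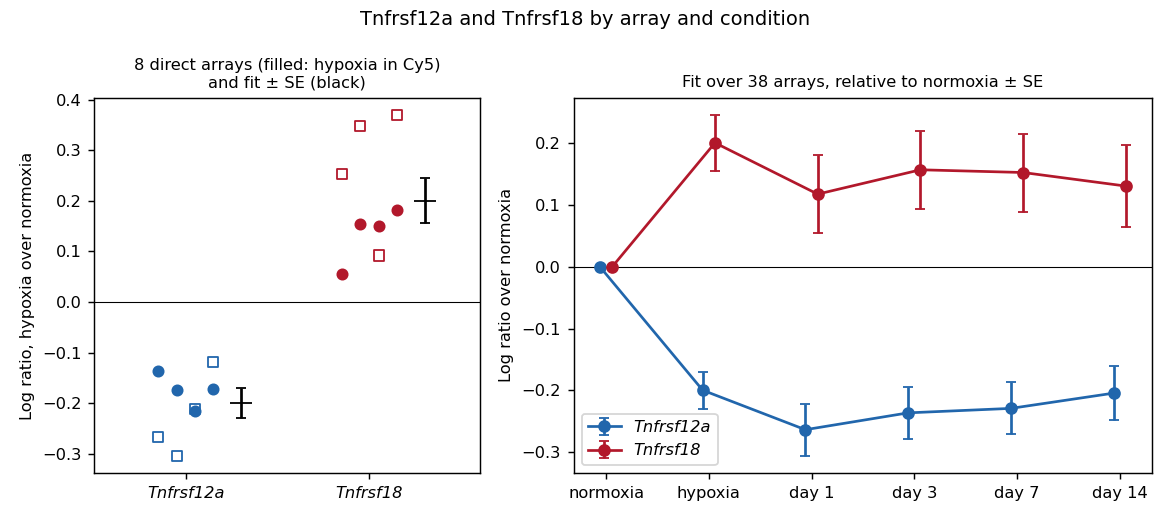
Left, log ratio of hypoxia over normoxia on each of the 8 direct arrays for Tnfrsf12a (blue) and Tnfrsf18 (red), filled where hypoxia was labelled with Cy5, with the fit ± SE in black. Right, fitted log ratio over normoxia ± SE in normoxia, hypoxia and days 1, 3, 7 and 14. Tnfrsf12a lies below 0 and Tnfrsf18 above 0 on all 8 arrays, and on day 14 the fitted points are -0.205 and 0.131.

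The promoters of the 2 receptors are shown because these are the members that changed, in opposite directions. They are the 250 bases before the start of each gene in RefSeq (GRCm38.p6), written 5′ to 3′ on the gene's strand, at chr17:23677450-23677699 (minus strand) for Tnfrsf12a and chr4:156026072-156026321 (plus strand) for Tnfrsf18. Capitals mark GC boxes (GGGCGG on either strand), a motif chosen after the first sequence had been read.
Tnfrsf12a: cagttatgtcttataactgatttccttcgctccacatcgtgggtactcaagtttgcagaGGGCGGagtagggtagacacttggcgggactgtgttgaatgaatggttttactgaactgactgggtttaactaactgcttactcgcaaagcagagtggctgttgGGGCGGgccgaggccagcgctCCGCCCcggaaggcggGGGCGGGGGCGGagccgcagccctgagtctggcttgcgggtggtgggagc
Tnfrsf18: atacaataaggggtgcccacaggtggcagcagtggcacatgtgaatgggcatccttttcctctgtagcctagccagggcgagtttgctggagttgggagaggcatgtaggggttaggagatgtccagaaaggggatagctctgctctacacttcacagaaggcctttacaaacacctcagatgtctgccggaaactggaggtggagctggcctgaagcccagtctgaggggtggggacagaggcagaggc
The Tnfrsf12a promoter holds 5 GC boxes and 15 CG dinucleotides at a GC content of 58.8%, whereas that of Tnfrsf18 holds no GC box and 2 CG dinucleotides at 56.0%. Of 27025 RefSeq promoters of this length, 32.9% hold a GC box, the median GC content is 52.0% and the median number of CG dinucleotides is 6. Neither promoter contains ACGTG, the core of hypoxia response elements (16.6% of promoters), TGANTCA, the AP-1 site (6.87%), or the kappaB motif (7.01%), on either strand. Among the 25 members with a promoter in the table, a GC box was found in 11, ACGTG was found in 5 (Tnfrsf4, Tnfrsf8, Tnfrsf21, Tnfrsf25 and Tnfsf14), and the kappaB motif in Tnfrsf8 alone.

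Markers of other cells moved in the same comparison. Of 13 alveolar type 2 markers 13 lay above 0 and 6 passed higher in hypoxia, and of 13 alveolar type 1 markers 12 lay above 0 and 6 passed higher. The 6 of the type 1 list were Aqp5, Clic5, Gprc5a, Igfbp2, Rtkn2 and Vegfa. Whether each listed gene reads alveolar cells alone in these vessels was not tested. The mean log ratio over all 26 alveolar markers lay between 0.0413 and 0.142 on the 8 arrays. With this alveolar score as a covariate, Tnfrsf12a stood at -0.155 ± 0.045 (limma adjusted p = 0.154) and Tnfrsf18 at 0.156 ± 0.068 (adjusted p = 0.408), and 0.117% of all entries were called. The score moved with condition, above 0 on all 8 arrays, and both SEs were wider than without it (0.030 and 0.045). A lost call in this fit therefore cannot tell the part of alveolar cells from that of hypoxia. Of 11 smooth muscle markers 9 lay below 0 and 5 fell (Acta2, Actg2, Cnn1, Tagln and Tpm2), with a mean between -0.165 and -0.0207 on the 8 arrays, and of 10 fibroblast markers 8 lay below 0 and Col3a1 fell, with a mean between -0.0866 and 0.0101. Endothelial markers lay above 0 in 9 of 12, with 2 called higher (Emcn and Kdr) and 1 called lower (Vwf). The part of these cell types in the value of Tnfrsf12a was not tested. Of 7 regulatory T cell markers 0 passed by limma, 0 of them also by an unadjusted p under 0.05, with a mean between -0.0404 and 0.0275. Foxp3, the defining factor of that lineage, was at -0.0323 ± 0.0285 (adjusted p = 0.638). Of 10 T cell markers 0 passed by limma while 4 had an unadjusted p under 0.05 (1 higher, 3 lower), as did 16.8% of all entries. Without arrays H_N 2 and N_H 4, Tnfrsf18 stood at 0.179 (adjusted p = 0.0676) while Tnfrsf12a still passed.

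The ligands of these receptors are Tnfsf12, which encodes TWEAK, and Tnfsf18, which encodes GITRL. Tnfsf12 had a log ratio of -0.0487 ± 0.0386 in hypoxia over normoxia (limma adjusted p = 0.584), with 4 of 8 arrays above 0. Tnfsf18 stood at -0.00241 ± 0.0305 (adjusted p = 0.983), with 3 of 8 arrays above 0. The intervals of the measured ratios, -0.127 to 0.0297 for Tnfsf12 and -0.0642 to 0.0594 for Tnfsf18, do not reach the fitted value of either receptor. Each ligand rests on 1 feature and brightness was not used, so whether they were detected in these vessels is not known. A feature at background would also give a ratio near 0, so these intervals cannot exclude a change in the RNA.

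Tnf, the founding cytokine, showed no consistent direction. Its log ratios of hypoxia over normoxia were -0.504 at the lowest (array N_H 3), -0.00564 at the median and 0.268 at the highest (array H_N 2). Only array N_H 4, at 0.223, joined these 2 away from 0, and the other 5 arrays lay between -0.0313 and 0.00492. Tnf was read by 10 spots, which correlated over the 38 arrays with a median r of 0.949, and on array N_H 3 they ranged from -0.574 to -0.432. The deviation of single arrays was therefore shared by all spots of the gene, and the fitted value was -0.00826 ± 0.0426 (limma adjusted p = 0.959). That value near 0 rests on single arrays: it was 0.0624 ± 0.0317 without N_H 3 (adjusted p = 0.358) and -0.0927 ± 0.0413 without H_N 2 and N_H 4 (adjusted p = 0.307).

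**Figure D3:**
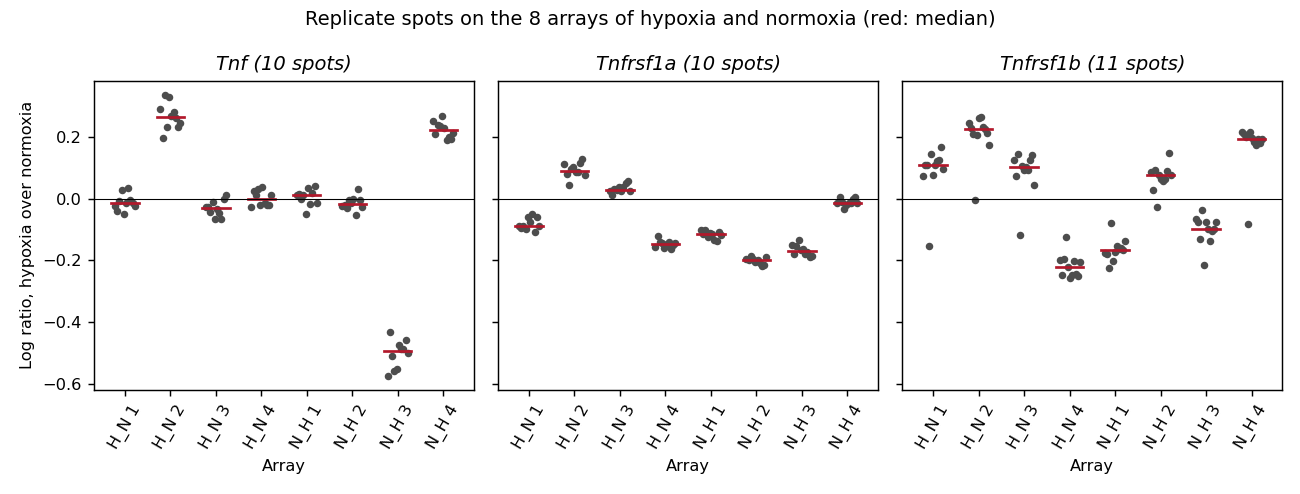
Log ratio of hypoxia over normoxia of each replicate spot of Tnf, Tnfrsf1a and Tnfrsf1b on the 8 direct arrays (grey points, red bar at the median of the spots). Spots of 1 gene lie close together within an array, except for 1 feature of Tnfrsf1b, while arrays differ, and for Tnf array N_H 3 lies near -0.5.

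The receptors of TNF are Tnfrsf1a, present on most cells and carrying a death domain, and Tnfrsf1b, found mainly on immune and endothelial cells. Tnfrsf1a ranged from -0.201 to 0.0926 with a median of -0.0989, and 6 of 8 arrays were below 0. Its 10 features agreed (r between 0.948 and 0.988, fitted values between -0.0797 and -0.0666), and its mean was -0.0750 ± 0.0310 with an unadjusted p of 0.0209 that did not pass after adjustment (0.192; without H_N 2 and N_H 4, -0.114 with an adjusted p of 0.0691). Tnfrsf1b ranged from -0.218 to 0.205 with 5 of 8 arrays above 0, and was fitted at 0.0167 ± 0.0475 (adjusted p = 0.918). Its sign turned without H_N 2 (-0.00717), without N_H 4 (-0.00995) and without both (-0.0404 ± 0.0528). Of its 11 features 10 were above 0, up to 0.0423, and 1 was at -0.0786, with an r as low as -0.0219 between features. The median r between features was 0.961, so the 10 varied together like replicate spots and do not count as 10 independent readings. The fitted value is a mean over all 11 features and weighs mostly these 10. Which reading is right for the gene was not tested.

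Among the remaining members the values with an unadjusted p under 0.05 were modest and none passed after adjustment. Tnfsf11 and Tnfrsf11a, which encode the osteoclast factor RANKL and its receptor RANK, stood at -0.1003 ± 0.0343 (adjusted p = 0.0981) and -0.0901 ± 0.0341 (adjusted p = 0.144). For both, array values crossed 0, from -0.282 to 0.0952 and from -0.275 to 0.0781. Each is a mean of 2 features of unlike size, at -0.172 and -0.0287 for Tnfsf11 (r = 0.322) and at -0.139 and -0.0415 for Tnfrsf11a (r = 0.124). Tnfrsf11b, the decoy receptor osteoprotegerin, was at 0.00721 ± 0.0246. Tnfrsf4, which encodes the T cell costimulator OX40, was at 0.0706 ± 0.0300 with 7 of 8 arrays above 0 (adjusted p = 0.208), and its ligand Tnfsf4 at 0.0102 ± 0.0159. Tnfsf8, the CD30 ligand, was at -0.0473 ± 0.0207, and Tnfsf13b, the B cell survival factor BAFF, at -0.0518 ± 0.0241 (adjusted p = 0.224 and 0.263).

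The other B cell members lay near 0: Tnfsf13, the APRIL gene, at 0.0162, and the receptors Tnfrsf13b (TACI), Tnfrsf13c (BAFF receptor) and Tnfrsf17 (BCMA) at -0.0242, -0.0095 and 0.0398. The death ligand Tnfsf10 (TRAIL) was at 0.0621 ± 0.0401 with 7 of 8 arrays above 0 (adjusted p = 0.468), its receptor Tnfrsf10b at 0.0324, and the mouse decoy receptors Tnfrsf22 and Tnfrsf23 at -0.0522 and 0.00879. The remaining T cell costimulators were the pair of Tnfsf9 and Tnfrsf9 (CD137) at -0.00735 and 0.0102, the pair of Tnfsf14 (LIGHT) and Tnfrsf14 (HVEM) at -0.0208 and -0.0472, and the pair of Tnfsf15 (TL1A) and the death domain receptor Tnfrsf25 at 0.0114 and -0.0217. Tnfrsf8, the receptor CD30, was at -0.00674, the death domain receptor Tnfrsf21 at 0.0385, Tnfrsf19 (TROY) at -0.0144 and Tnfrsf26 at -0.0210. None of these 10 came near the threshold, with limma adjusted p values from 0.432 upwards.

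Family members whose symbols do not follow the Tnf pattern, such as Fas, Cd40lg, Ltbr and Ngfr, gave 0 calls by limma among 14 measured, while 3 had an unadjusted p under 0.05, all lower, led by Cd40lg at -0.0686 ± 0.0258 (adjusted p = 0.141). Of 23 measured adaptors and kinases that act below the receptors 0 passed by limma and 3 had an unadjusted p under 0.05. Among these were the adaptor Tradd at 0.0676 ± 0.0312 and Traf1 at -0.0711 ± 0.0321. Of all entries 16.8% had an unadjusted p under 0.05 in this comparison, so both counts of 3 lie near the background. Of 13 measured NF-κB components 2 lay above 0 and 11 below, 0 passed, and 0 had an unadjusted p under 0.05. Of 19 measured NF-κB target genes 15 lay below 0 and 2 fell in hypoxia, where 2.25% of all entries were called lower. The 2 are Vcam1 and Sele, both endothelial adhesion molecules. The adhesion molecules Icam1 and Selp of the same list were not called. Their arrays lay on both sides of 0, from -0.0436 to 0.155 for Icam1 and from -0.254 to 0.152 for Selp. Vcam1 stood at -0.132 ± 0.034 (adjusted p = 0.0230) and Sele, the E-selectin gene, at -0.107 ± 0.029 (adjusted p = 0.0306), each below 0 on 8 of 8 arrays. Both calls come from the fit over all arrays alone, in which 3.6% of all entries were called. This share was 0.117% with the alveolar covariate, and 2.06% without arrays H_N 2 and N_H 4. Whether Vcam1 and Sele keep their calls in those fits was not tested. The median of the NF-κB target genes was -0.0359, against -0.00397 for all entries. General endothelial markers lay above 0 in 9 of 12, with a median of 0.0311 and a mean between -0.0299 and 0.104 on the 8 arrays. Among them 3 were called (Emcn and Kdr higher, Vwf lower). By an unadjusted p under 0.05 they were split, 3 higher and 3 lower.

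The next comparisons asked whether members differ between each day of return and hypoxia. On days 1, 3, 7 and 14, 0 of 32 members passed by limma, where 0%, 0.013%, 0.0163% and 0% of all entries did. The lowest adjusted p of a member was 0.9997, 0.472, 0.691 and 0.99998 on these days. By an unadjusted p under 0.05 the counts were 3, 2, 2 and 1 members, all lower than in hypoxia, where 3.97%, 9.22%, 6.48% and 4.03% of all entries differed in either direction.

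On no day of return did Tnfrsf12a differ from its level in hypoxia by the test. Its log ratio over hypoxia was -0.0639 ± 0.0299 on day 1, -0.0367 ± 0.0291 on day 3, -0.0294 ± 0.0294 on day 7 and -0.00478 ± 0.0320 on day 14, with limma adjusted p values from 0.737 upwards. The upper ends of the 95% intervals were -0.00316, 0.0224, 0.0302 and 0.0603 on these days. On single arrays the values over hypoxia were -0.0589, -0.0415, -0.00366 and 0.0117 on day 1. On day 3 they were -0.265, -0.103, -0.0229 and -0.0201, on day 7 -0.197, 0.0296, 0.0442 and 0.161, and on day 14 -0.132, 0.00474 and 0.0171. Day 3 arrays were all below 0, whereas those of the other days lay on both sides of it.

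Through hypoxia, the fit also set each day against normoxia. These comparisons all draw on the same 8 arrays of hypoxia and normoxia, so they are not independent of that comparison or of each other. Tnfrsf12a was at -0.264 ± 0.042 on day 1, -0.236 ± 0.042 on day 3, -0.229 ± 0.042 on day 7 and -0.205 ± 0.044 on day 14 over normoxia. It passed on days 1, 3 and 7 (limma adjusted p = 0.0118, 0.0101 and 0.0241), where 0.111%, 0.783% and 0.0228% of all entries were called. On day 14 it did not (adjusted p = 0.0716, with 0.0261% of entries called). On day 1 it had the smallest p of all 30653 entries, and on days 3, 7 and 14 it ranked at 6, 5 and 18. It was the only member called on any day against normoxia. The day 1 call was absent without arrays N3_N1 1 and N3_N1 2 (-0.243, adjusted p = 0.0815), and with the alveolar covariate the adjusted p values were 0.187, 0.174 and 0.0916 on days 1, 3 and 7. The day 7 call was also absent without any one of H_N 1, H_N 2 and N_H 3 (adjusted p = 0.0767, 0.0738 and 0.0523), without the dye term (0.0543) and without entries of low SD (0.0518), while on day 14 the gene passed with array weights (0.0295) or without any one of N3_N7 2, N7_H 2 and N_H 4.

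Tnfrsf18 stayed above its normoxic level in the fitted values but no day passed. Over normoxia it was at 0.118 ± 0.064 on day 1, 0.157 ± 0.063 on day 3, 0.152 ± 0.063 on day 7 and 0.131 ± 0.066 on day 14 (limma adjusted p = 0.494, 0.228, 0.473 and 0.587). Over hypoxia it was at -0.0830 ± 0.0450, -0.0436 ± 0.0438, -0.0481 ± 0.0442 and -0.0700 ± 0.0482. The 95% intervals of these differences from hypoxia all included 0, with lower ends of -0.174, -0.133, -0.138 and -0.168. Over normoxia the intervals reached 0 on days 1 (-0.0117 to 0.247) and 14 (-0.00333 to 0.264), so these data separate Tnfrsf18 on those days neither from hypoxia nor from normoxia.

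**Figure D4:**
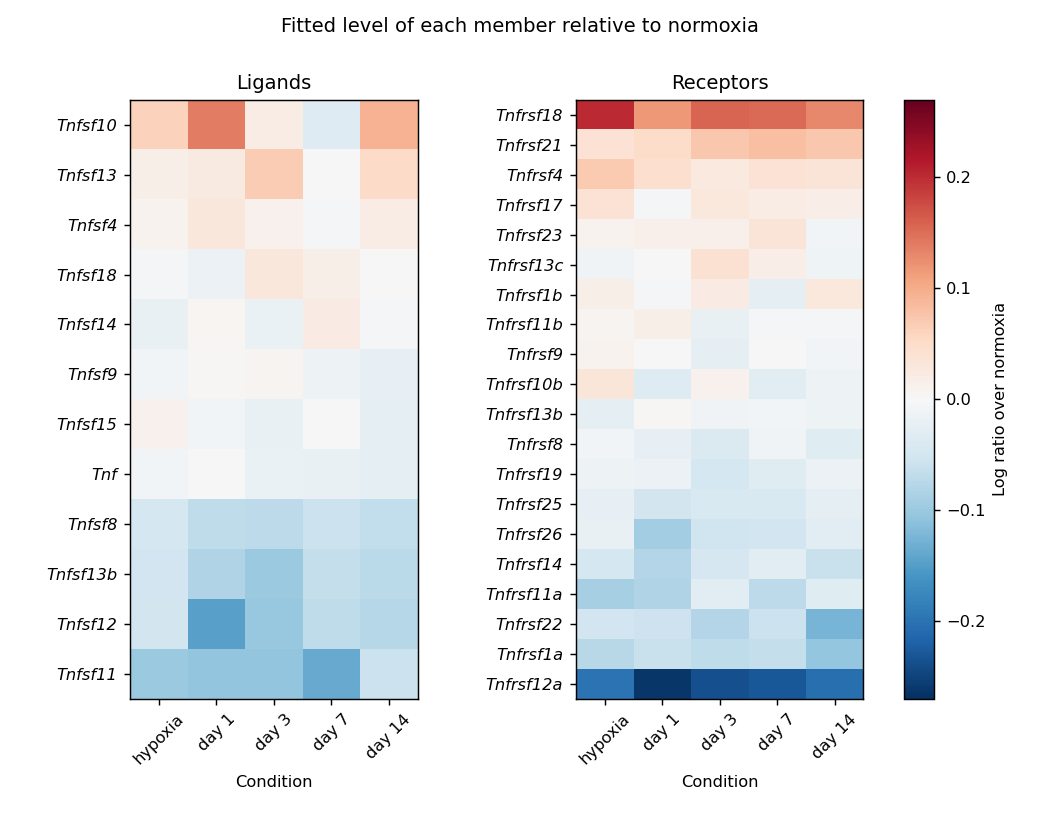
Fitted log ratio over normoxia of each ligand (left) and receptor (right) in hypoxia and on days 1, 3, 7 and 14, as colour (red above normoxia, blue below). Members are sorted by their mean over the 5 columns, which share the 8 arrays of hypoxia and normoxia, and Tnfrsf12a and Tnfrsf18 form the 2 ends among the receptors.

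Tnfsf12, the ligand of Fn14, had its lowest fitted level on day 1. Its log ratio over hypoxia was then -0.0985 ± 0.0386 (unadjusted p = 0.0153, limma adjusted p = 0.9997), but the 4 direct arrays were at -0.129, -0.0755, 0.0460 and 0.115. These arrays fell on both sides of 0, and fitted alone they gave 0.00810. Over normoxia Tnfsf12 was at -0.147 ± 0.055 on day 1 (adjusted p = 0.261) and between -0.102 and -0.0679 on the later days.

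Tnfrsf10b, a death receptor for TRAIL, was at -0.0671 ± 0.0281 over hypoxia on day 1, with array values of -0.0414, -0.0399, -0.0221 and -0.0132. All 4 were below 0, and the fitted value, which also draws on the arrays between days and the dye term, lay beyond each of them. On day 7 it was at -0.0609 ± 0.0276, with arrays at -0.256, -0.139, -0.0607 and 0.0939, and on day 14 at -0.0469 ± 0.0300, with arrays at -0.132, -0.0421 and 0.0442. Its 3 features hardly varied together over the arrays (median r = 0.0539).

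On day 3 the members with the smallest p were Tnfrsf9 at -0.0342 ± 0.0149 over hypoxia, Tnfsf13b at -0.0477 ± 0.0235, and Tnfrsf8 at -0.0323 ± 0.0178. Tnfrsf9 had array values of -0.142, -0.0208, -0.00876 and 0.0141. Tnfsf13b had -0.0935, -0.0884, -0.00496 and 0.00102, and Tnfrsf8 -0.143, -0.0509, -0.0175 and 0.00665. For each of the 3 genes 3 of 4 arrays were below 0, and for Tnfrsf9 and Tnfrsf8 array H_N3 1 was the lowest. Tnfrsf9 is a mean of 4 features that hardly varied together over the arrays (median r = 0.0234). Tnfsf13b is a mean of 2 features (r = 0.121), and Tnfrsf8 rests on 1.

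On day 7 Tnfsf10 led, at -0.0971 ± 0.0393 over hypoxia (unadjusted p = 0.0186, limma adjusted p = 0.691), with arrays at -0.189, -0.171, -0.142 and -0.0144, all below 0. Tnfsf14 had arrays at -0.0378, 0.0812, 0.0974 and 0.181 on that day, and a fitted value of 0.0437 ± 0.0294. On day 14 the decoy receptor Tnfrsf22 was at -0.0725 ± 0.0350, with arrays at -0.140, -0.113 and -0.0603, all below 0. Tnfrsf11a had arrays at -0.0660, 0.0275 and 0.0893 on day 14, and a fitted value of 0.0575 ± 0.0365. The day 14 arrays all carry hypoxia in Cy3, so for that comparison dye orientation was balanced by the other arrays of the fit alone. Day 1 over hypoxia was unbalanced too, with day 1 in Cy5 on 1 of its 4 arrays and in Cy3 on 3.

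Of the 12 ligands, Tnfsf10 was the one whose fitted level differed most between the days. Between days it was at -0.118 ± 0.042 on day 3 over day 1 (unadjusted p = 0.00803) and at 0.128 ± 0.043 on day 14 over day 7 (unadjusted p = 0.00511). The arrays of day 3 over day 1 were at -0.266, -0.190, -0.123 and -0.104, and those of day 14 over day 7 at 0.0346, 0.135, 0.152 and 0.234. All 4 arrays of the first step were below 0 and all 4 of the second above it. The first step includes N3_N1 1 and N3_N1 2, which resembled each other over all features (r = 0.546) and may not be independent readings. Neither step passed after adjustment (limma adjusted p = 0.904 and 0.9997), and the F test over the 6 conditions gave an adjusted p of 0.223. On the arrays of day 3 over hypoxia Tnfsf10 was at -0.188, 0.0342, 0.158 and 0.209, so these arrays did not follow the fitted value of -0.0421 ± 0.0390. Nor did those of day 1 over hypoxia, where 3 of 4 arrays were below 0 (median -0.0138) and the fitted value was 0.0759 ± 0.0401.

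**Figure D5:**
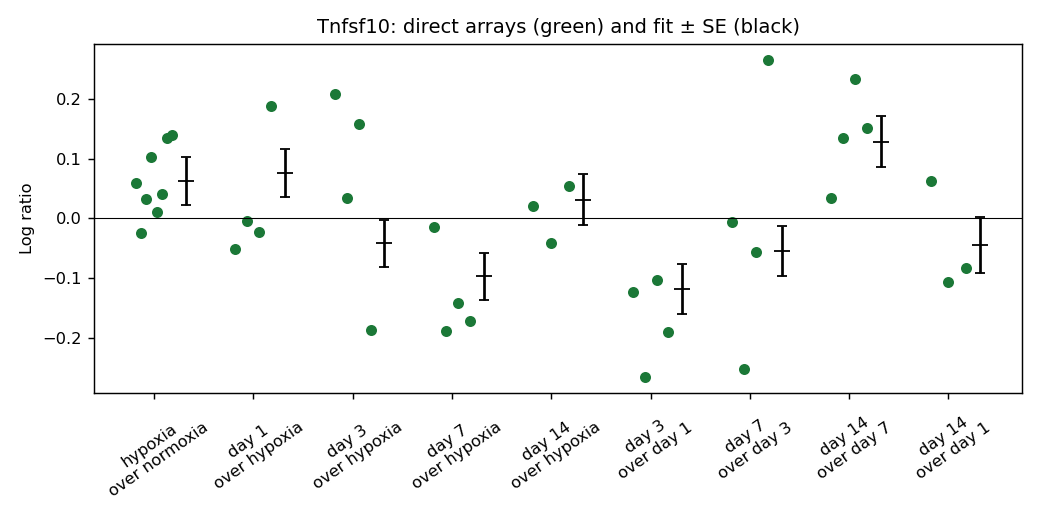
Tnfsf10 log ratios on each direct array (green) of 9 comparisons, with the fitted value ± SE (black). The arrays lie on 1 side of 0 for day 7 over hypoxia, day 3 over day 1 and day 14 over day 7, and on both sides elsewhere.

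In the steps from day to day 0 of 32 members passed by limma for day 3 over day 1, day 7 over day 3, day 14 over day 7 and day 14 over day 1, where 0%, 0.00979%, 0% and 0% of all entries did. By an unadjusted p under 0.05, which 4.63%, 10.2%, 3.66% and 2.79% of all entries had in these steps, the members were Tnfsf10 for day 3 over day 1, Tnfsf13 for day 7 over day 3 (-0.0708 ± 0.0348), and Tnfsf10 and Tnfsf11 (0.0770 ± 0.0368) for day 14 over day 7. For day 14 over day 1 there were 0 such members.

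Whether a ligand and its receptor vary together between arrays was tested on the residuals of the fit, with condition and dye removed, for 18 known pairs over 38 arrays. None passed after Benjamini-Hochberg adjustment over the 18 pairs (lowest adjusted permutation p = 0.253). Tnf and Tnfrsf1a had r = 0.352 (permutation p = 0.0303) but a Spearman rho of 0.0717 (p = 0.669), and r was 0.113 without H_N 2 and N_H 3, so the relation rests on these arrays. Tnf and Tnfrsf1b had r = 0.330 (p = 0.0422), rho 0.274 (p = 0.0947) and r = 0.280 without the same 2 arrays. Tnfsf10 and the decoy receptor Tnfrsf11b had r = -0.387 (p = 0.0159), rho -0.250 (p = 0.131) and r = -0.253 without H_N3 1 and N7_N3 2. Tnfsf12 and Tnfrsf12a had r = 0.258 (p = 0.118, adjusted 0.464) and Tnfsf18 and Tnfrsf18 r = -0.154 (p = 0.353, adjusted 0.636). Among members that lie next to each other on a chromosome, Tnfrsf22 and Tnfrsf23 had r = 0.326, and Tnfrsf4 and Tnfrsf18 had r = -0.196.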

How the data were processed

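The members and gene lists were chosen with earlier results of these data known. The authors deposited 1 log ratio per feature and array, read here as log10 because the values are small (largest 1.12), although no base is stated. Per the submitters' processing notes limma was used, and how images were read and values normalized is not given in the sources used here. Array medians lay between -0.00306 and 0.00678. Brightness, slides and scan dates were not used, so batches were not tested. 1 animal per channel was 1 replicate.

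A missing value removed 2 of 45220 features. Features with 1 platform symbol were averaged per gene, giving 30653 entries (19087 named genes, 11566 unnamed features). The model (limma 3.58.1 in R 4.3.3, lmFit then eBayes) held a dye intercept and 5 terms for condition over 38 arrays, which left 32 residual degrees of freedom. Each of 13 contrasts and the F test were two-sided and adjusted over all entries by the Benjamini-Hochberg method at 0.05. Errors are SE of the fit. The precision is limited by the number of arrays. All members could be named; array values were given for members that passed, for Tnf, Tnfrsf1a and Tnfrsf1b, and otherwise for the 3 members with the smallest p; those of Tnfsf10 in other comparisons, and the array ranges of Tnfsf11 and Tnfrsf11a, were added after their values were seen. Correlations used 100000 permutations. Promoters came from RefSeq GRCm38.p6 by gene symbol, for 25 of 32 members. The fitting steps were tested on simulated data. Alternatives were no dye term, array weights, scaling or centring of arrays, the choice of probes, robust empirical Bayes, leaving out entries of low SD, direct arrays alone, the replicate block, named genes alone, an alveolar score as a covariate, and each array left out. Fits without both N3_N1 arrays, and without H_N 2 and N_H 4, were added after the data were seen.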

Additional observations from a re-analysis of the deposited data

Results flagged for a closer look

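Of 14 sets of array values checked, 1 held an array far from the others; chance gives about 1 in 20. For Tnf in hypoxia over normoxia, array N_H 3 stood at -0.504, and its gap to the next array was 0.612 of the range over 8 arrays. All 10 Tnf spots of that array lay between -0.574 and -0.432. On the same array the NF-κB target Il1b was at -0.729, while its other 7 arrays lay between -0.283 and 0.1499, and 2 genes named after their values were seen, Il6 and Cxcl1, were at -0.632 and -0.482. Of the 19 measured NF-κB target genes 14 were below 0 and 5 above 0 on that array, the highest being Sod2 at 0.0991. The mean of 19 NF-κB target genes was lowest on that array, at -0.142, as was the mean of 8 neutrophil markers, at -0.215, and the alveolar score was 0.142. A ratio does not show which of the 2 animals of the array differed, and the part of these markers in the value of Tnf was not tested.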

How the results depend on the processing

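Of 723 counts of called members recomputed under other settings, 703 stayed within 1.5 times their value, among them 524 of 532 with an array left out. Many of these are counts of 0 for days against hypoxia or against each other. There at most 0.0163% of all entries were called, so those counts had little room to change and say little about stability. All changes fell in hypoxia against normoxia, the days against normoxia and the F test. The count of 2 members in hypoxia against normoxia became 0 with the alveolar covariate and 1 without H_N 2 and N_H 4, and lay between 2 and 4 with an array left out (4 without N_H 1, which added Tnfrsf11a and Tnfsf11). Against normoxia, the single call, Tnfrsf12a, became 0 with the alveolar covariate on days 1, 3 and 7, and 0 on day 1 without both N3_N1 arrays. On day 7 it was 0 without the dye term (adjusted p = 0.0543), without entries of low SD (0.0518), without H_N 2 and N_H 4 (0.0930) and, with an array left out, between 0 and 1. On day 14 the count of 0 became 1 with array weights (adjusted p = 0.0295), and lay between 0 and 1 with an array left out (1 without N3_N7 2, N7_H 2 or N_H 4). For the F test 1 became 0 with the alveolar covariate and 0 without H_N 2 and N_H 4 (adjusted p = 0.0560), and lay between 1 and 2 with an array left out (2 without H_N14 3, which added Tnfrsf18). Signs turned for Tnf in hypoxia against normoxia with the alveolar covariate (0.0761). With an array left out Tnf ranged from -0.0466 to 0.0624, the highest without N_H 3. For Tnfrsf1b the sign turned with the alveolar covariate (-0.0546), without H_N 2 and N_H 4 (-0.0404), and with an array left out (-0.00995 to 0.0552). The single-probe setting took the Tnfrsf1b feature with the smallest p (-0.0786), whereas 10 of its 11 features were above 0. These 10 varied together like replicate spots and are not independent of each other. Signs also turned for Tnfsf12 on day 1 over hypoxia on direct arrays alone (0.00810) and Tnfrsf10b on day 14 over hypoxia with the probe of largest SD (0.0113). Beyond the fewer arrays, probes or features that an alternative holds, the cause was not tested. Replicate numbers did not pair arrays: residuals of 248 same-numbered pairs of arrays of different groups had a median r of -0.0160, and 426 other pairs one of -0.0244. The replicate block changed no call: Tnfrsf12a had an adjusted p of 0.000572 and Tnfrsf18 0.00848 in hypoxia against normoxia. On direct arrays alone these were 0.0304 and 0.0498.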
